A study of Oryza sativa Indica Group with 18 samples.

Results

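CHL1 and PORA are rice genes of chlorophyll synthesis, and the deposited arrays carry 1 probe set for each, so 2 genes stand here out of the 17905 genes that have at least 1 unshared probe set. They were taken by name: CHL1 and PORA are synonyms of the loci LOC4334537 and LOC4337415 in the reference gene table that names the array's genes, and CHL1 also carries the name CHLD there. They were chosen by the measured intensities of the cultivar IR64, in which they moved apart between the 37 °C and the 42 °C step. For that reason the IR64 values of heated arrays are given here as a description, without a test, and tests of CHL1 and PORA themselves are kept to the arrays of the cultivar Annapurna and to the unheated controls; other genes are tested in both cultivars.

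Chlorophyll is built from glutamate through a chain of tetrapyrroles. Magnesium chelatase, an enzyme of H, I and D subunits, puts magnesium into protoporphyrin IX and so commits the chain to chlorophyll; CHL1 encodes the D subunit, and the rice chlorina-1 mutant of this gene has yellow-green leaves. Some steps later protochlorophyllide oxidoreductase (POR) turns protochlorophyllide into chlorophyllide, a reaction that needs light, and PORA and PORB encode forms of this enzyme. In Arabidopsis and barley, PORA is known as the form of dark-grown seedlings, its transcript declining in light, and PORB as the form that stays on in green tissue.

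Whole seedlings, 7 days old and grown hydroponically, of the indica rice cultivars Annapurna and IR64 gave 18 Affymetrix arrays, 3 per group in 6 groups. In each cultivar the control group stood at 28 ± 1 °C for 3 h, the 37 °C group spent 1 h at 37 °C, and the 42 °C group had 2 h of 42 °C after 1 h of pretreatment at 37 °C. The heat was given in light at 40% relative humidity, no transgene or mutation is named for any group, and the title contrasts a tolerant with a susceptible cultivar without the labels saying which is which. Replicates are labelled biological, with no statement of how many seedlings went into each, and each 37 °C group was taken after 1 h against 3 h for the other groups, so temperature and elapsed time cannot be told apart in the comparisons with 37 °C. The p-values measure the spread between these 3 samples a group.

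Values are the deposited linear intensities in arbitrary units, given per array or as mean ± SD with n = 3 arrays. Differences are on the log2(intensity + 16) scale, ± SE from a limma fit to all 18 arrays, with p-values Benjamini-Hochberg adjusted over 57258 probe sets. "Rose", "fell" or "called" is used of a gene with an adjusted p under 0.05 and a difference of at least 1 log2, which is 2-fold. In whole seedlings, fewer cells of a type and less RNA per cell cannot be told apart.

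Array medians lay between 7.57 and 8.19, and arrays of a group correlated at r = 0.997 to 0.999 across probe sets. Green tissue was strongly present on all arrays: the mean of RCA, the Rubisco activase gene, ran from 15400 to 32345 over the groups, and that of the light harvesting gene CAB2R from 42729 to 52874. The group means of the array control creX were, from control through 37 °C to 42 °C, 33794, 30192 and 23496 for Annapurna, and 32138, 26520 and 23868 for IR64. The array also carries actin control probe sets for the 3' and 5' ends of the transcript. Their log2 ratio, 3' to 5', averaged 5.54, 5.32 and 5.24 in the same order for Annapurna, and 4.77, 4.99 and 5.14 for IR64. On single arrays the ratio lay between 4.62 and 6.31, so the 3' signal was far above the 5' signal on every array. Between the cultivars, its means were furthest apart in the control groups. The part of creX and of this ratio in the results below was not tested. Precision is limited by having 3 arrays a group.

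The CHL1 probe set went down with each heat step. In Annapurna the 3 controls read 4391, 3919 and 4061, the 37 °C arrays 3308, 3428 and 3379, and the 42 °C arrays 2184, 2194 and 2292. The groups stepped down with no overlap between them, and the 42 °C arrays lay close to each other. In IR64 the controls read 4462, 4406 and 4675, the 37 °C arrays 4027, 3871 and 4034, and the 42 °C arrays 1528, 1771 and 1654. Here the 37 °C arrays stood little below the controls, and the drop came with the 42 °C step.

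The PORA probe set went the other way, over a 9.95-fold span of single arrays from 1511 to 15026, against 3.06-fold for CHL1. In Annapurna the controls read 2498, 2550 and 2735, the 37 °C arrays 5791, 6206 and 6035, and the 42 °C arrays 13097, 13676 and 15026. In IR64 the controls read 1712, 1681 and 1511, the 37 °C arrays 4102, 4111 and 4009, and the 42 °C arrays 11519, 11154 and 11429. Every heat step lay above the one before it in both cultivars, without overlap of any arrays. How many of all genes separate in this way was not counted, for PORA or for CHL1. Over the single steps, between 51.7% and 64.4% of all genes differed at a limma adjusted p under 0.05 alone, so separation by itself does not mark these genes out.

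**Figure D1:**
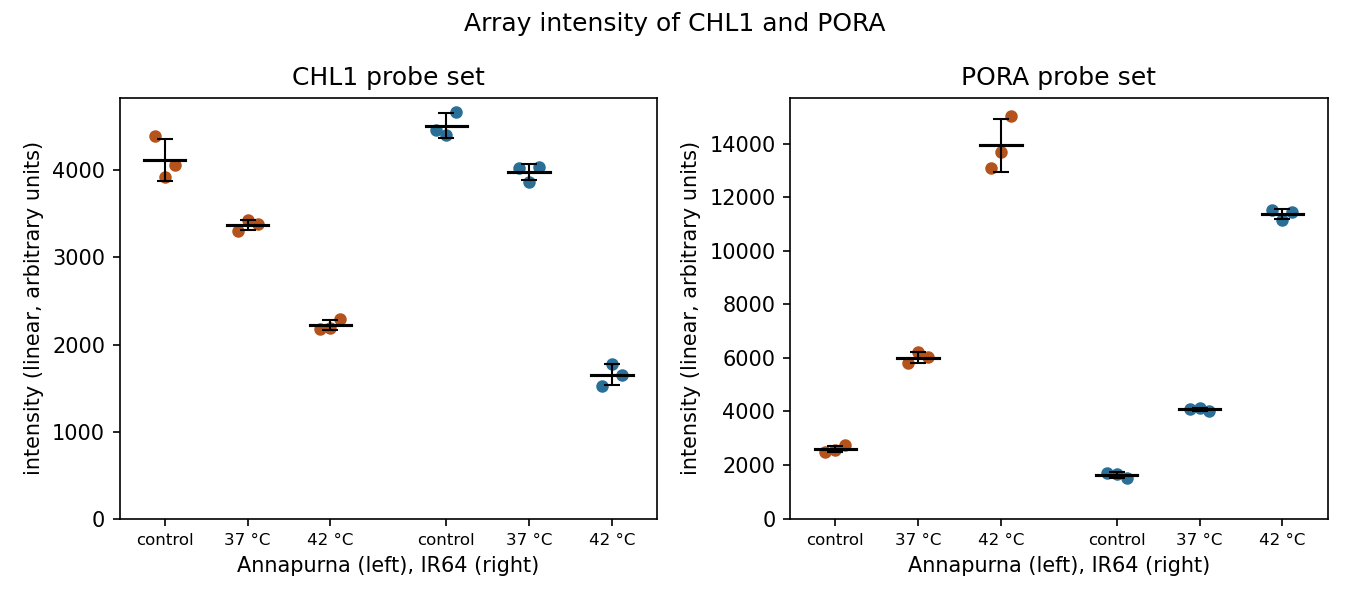
Intensity of the CHL1 probe set (left panel) and the PORA probe set (right panel) on each of the 18 arrays, on linear axes that start at 0; points are arrays, horizontal bars group means and error bars SD (n = 3), with Annapurna in brown and IR64 in blue. CHL1 goes down from 4391 on the highest Annapurna control to 2184 on the lowest Annapurna 42 °C array, while PORA goes up from 2498 to 15026 between the lowest control and the highest 42 °C array of the same cultivar.

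Ordered by mean level, CHL1 was highest in IR64 controls (4514 ± 142), then in Annapurna controls (4124 ± 242), IR64 37 °C (3977 ± 92.0), Annapurna 37 °C (3372 ± 60.6), Annapurna 42 °C (2223 ± 59.6) and IR64 42 °C (1651 ± 122). The arrays of Annapurna controls and of IR64 at 37 °C overlapped, and those of the other neighbours in this order did not. For PORA the order ran from Annapurna 42 °C (13933 ± 990) through IR64 42 °C (11367 ± 190), Annapurna 37 °C (6011 ± 209), IR64 37 °C (4074 ± 56.4) and Annapurna controls (2594 ± 124) to IR64 controls (1635 ± 109). No neighbours in the PORA order overlapped. PORA thus stood higher in Annapurna than in IR64 at each step, whereas CHL1 was lower in Annapurna than in IR64 in the control and at 37 °C and higher at 42 °C.

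The first question a test can answer is whether the arrays of Annapurna show the same directions. The rule that chose the genes used IR64 arrays, but earlier results of these data were known at the choice. PORA rose at each step. From control to 37 °C the difference was log2 1.21 ± 0.055 (2.31-fold, limma adjusted p = 3.4e-10), from 37 °C to 42 °C it was 1.21 ± 0.055 (2.31-fold, adjusted p = 3.7e-10), and over both steps 2.42 ± 0.055 (5.34-fold, adjusted p = 3.6e-13). On a log scale the rise was thus spread evenly over the steps. The comparisons of 37 °C and of 42 °C with control share the control arrays, and those of a step with the next share the 37 °C arrays. Among all genes 5.56% were called higher from control to 37 °C, 2.75% from 37 °C to 42 °C and 3.4% from control to 42 °C. Only 49 of 17905 genes (0.274%) had a difference between Annapurna 42 °C and control as high as that of PORA.

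CHL1 in Annapurna moved down by less than the threshold at every step, so it was not called, although its adjusted p was under 0.05 each time. The difference was log2 -0.29 ± 0.050 from control to 37 °C (adjusted p = 3.9e-04), -0.60 ± 0.050 from 37 °C to 42 °C (adjusted p = 3.0e-07) and -0.89 ± 0.050 over both (1.85-fold lower, adjusted p = 4.6e-09). Without a fold threshold 28.6% of all genes were lower at 42 °C than in the control at that adjusted p, and 6.71% of genes had a difference as low as that of CHL1. The step from 37 °C to 42 °C in Annapurna thus carried about the same directions as in IR64, with PORA called and CHL1 not called.

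In IR64, whose 37 °C and 42 °C arrays served to pick the genes, CHL1 differed by log2 -0.18 ± 0.050 between 37 °C and control, by -1.26 ± 0.050 between 42 °C and 37 °C and by -1.44 ± 0.050 between 42 °C and control, the last being 2.72-fold. PORA differed by 1.31 ± 0.055, 1.48 ± 0.055 and 2.79 ± 0.055 in the same order, the last being 6.91-fold. These values are a description of the choice. Of the 3 green tissue markers, each read by its brightest probe set, 0 were called over the step from 37 °C to 42 °C in either cultivar. RCA differed by log2 -0.38 ± 0.057 in Annapurna and -0.81 ± 0.057 in IR64, RBCS, the small subunit gene of Rubisco, by -0.14 ± 0.076 and 0.06 ± 0.076, and CAB2R by 0.10 ± 0.038 and 0.20 ± 0.038. A further bright probe set of RBCS was lower at 42 °C. In IR64 it was lower by more than 2-fold, with log2 means of 13.39 at 37 °C and 12.07 at 42 °C. Its means at 37 °C and 42 °C were 11192 ± 550 and 8066 ± 2017 in Annapurna, and 10710 ± 543 and 4334 ± 872 in IR64. Their part in the CHL1 values was not tested. As background, 9.22% of all genes were called either way in IR64 at 37 °C, 11.5% at 42 °C and 6.45% between the steps.

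**Figure D2:**
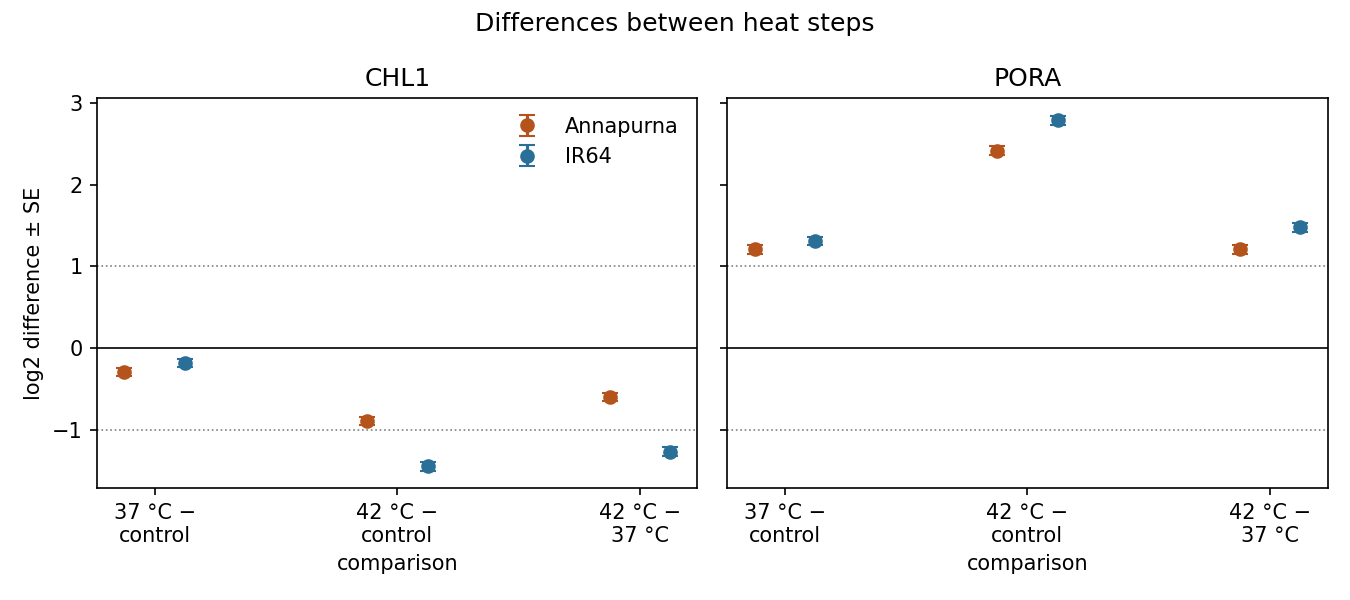
Log2 differences ± SE between heat steps for CHL1 (left panel) and PORA (right panel), with Annapurna in brown and IR64 in blue and dotted lines at a log2 of 1 in each direction. PORA lies above the upper dotted line in all comparisons, and CHL1 passes the lower one only in IR64, at -1.26 and -1.44; the IR64 values chose the genes and carry no test.

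Between the cultivars, the only comparison without the heated IR64 arrays that chose the genes is that of the controls. There PORA was 1.58-fold higher in Annapurna (log2 0.66 ± 0.055, adjusted p = 3.6e-07) and CHL1 differed by -0.13 ± 0.050 (adjusted p = 0.033). Neither reached 2-fold, so neither was called, against 6.17% of genes called either way between the controls. As a description, the PORA difference between the cultivars was 0.66 in the control, 0.56 ± 0.055 at 37 °C and 0.29 ± 0.055 at 42 °C, and the CHL1 difference went from -0.13 through -0.24 ± 0.050 to 0.43 ± 0.050. The changes from control to 42 °C, taken as Annapurna minus IR64, differed by 0.56 ± 0.071 for CHL1 and by -0.37 ± 0.077 for PORA. In these values both genes moved less in Annapurna. They include heated IR64 arrays that chose the genes, and such a choice favours a larger change in IR64. No difference between the cultivars is concluded from them. After quantile normalization, which moved the median of all genes in this contrast by 0.11, the values for CHL1 and PORA stood at 0.61 and -0.26.

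The rest of the pathway was looked at through the genes named in the annotation. Of 14 chlorophyll synthesis genes found there, 12 had a probe set, HEMC and DVR having none, which leaves 10 beside CHL1 and PORA. Of these 10, 1 rose and 0 fell in Annapurna at 37 °C, near the 10.3% of all genes called either way in that comparison, and 0 were called at 42 °C against control (8.9% of all genes) or against 37 °C (9.14%). In IR64, 0 were called at 37 °C (9.22% of all genes), 1 fell at 42 °C against control (11.5% called either way), and 0 were called between the steps (6.45%), counts near those shares. At adjusted p under 0.05 alone the counts were 5, 6 and 5 for Annapurna, then 7, 10 and 10 for IR64, with the comparisons in that order, where all genes gave 55.5, 53.1 and 51.7% and 61.8, 71.5 and 64.4%. None of the 10 other genes was called higher at 42 °C against control, where 3.4% of all genes in Annapurna and 6.45% in IR64 were. That count is near those shares.

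**Figure D3:**
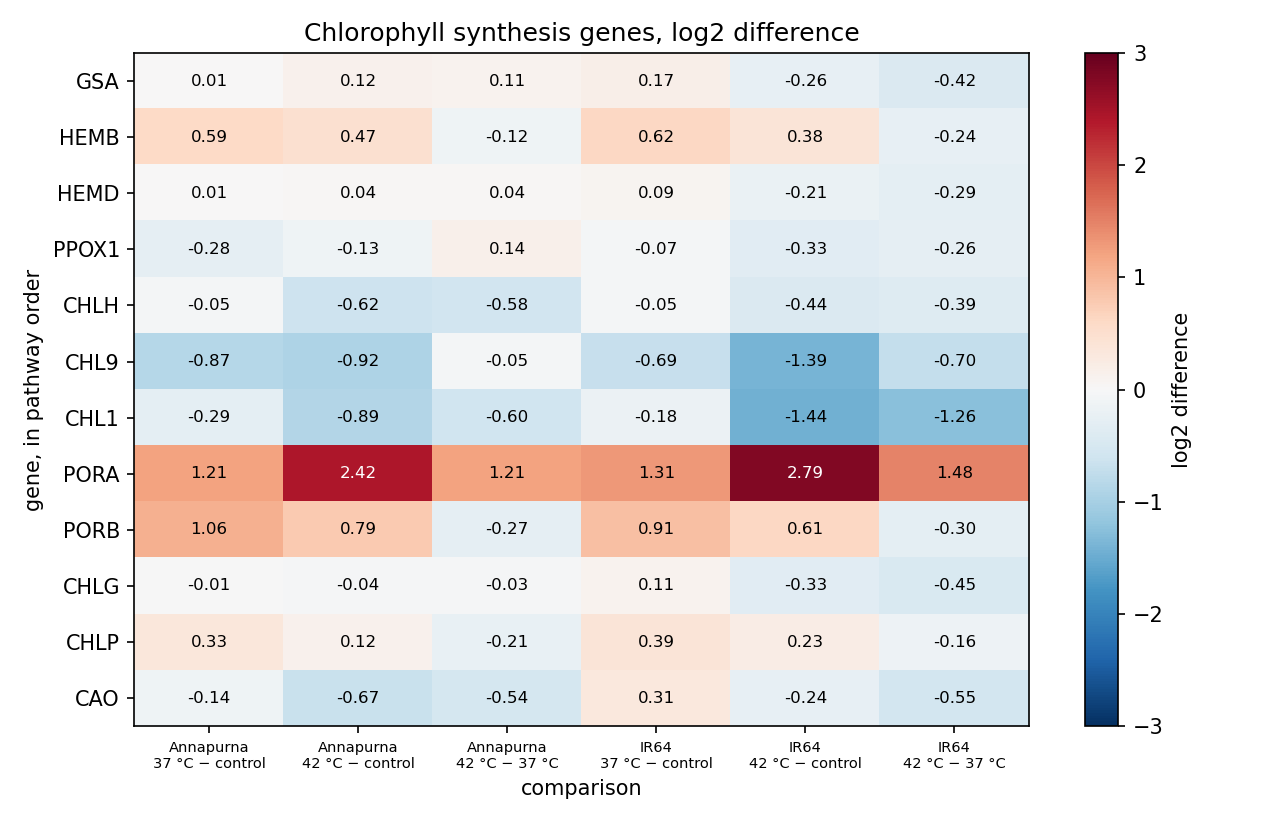
Log2 differences of the 12 chlorophyll synthesis genes with a probe set, from the early steps at the top to the last steps at the bottom, for 3 comparisons in each cultivar. Among the last steps the rows CHLG, CHLP and CAO are not in strict pathway order. Red is higher in the first named group and blue lower. PORA is the red row throughout, with 2.42 and 2.79 at 42 °C against control, and the IR64 column of 42 °C against 37 °C is blue in every row but that of PORA.

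None of the genes of the early steps to protoporphyrin IX was called in a heat comparison. GSA, which makes 5-aminolevulinate, differed by log2 0.01 ± 0.056 in Annapurna at 37 °C and 0.12 ± 0.056 at 42 °C, and by 0.17 ± 0.056 and -0.26 ± 0.056 in IR64. HEMB, 5-aminolevulinate dehydratase, was the early gene furthest above control, at 0.59 ± 0.069 and 0.47 ± 0.069 in Annapurna and 0.62 ± 0.069 and 0.38 ± 0.069 in IR64, under 2-fold in each. HEMD, uroporphyrinogen III synthase, kept within 0.21 of control at both steps in both cultivars but differed between them: it read 630 to 679 in Annapurna controls and 297 to 341 in IR64 controls (log2 0.97 ± 0.065), and at 42 °C the difference of 1.23 ± 0.065 was called (adjusted p = 2.8e-09), where 2.51% of all genes were called higher in Annapurna. The control difference was 1.01 with 1 added before the log, and 1.01 without IR64 control replicate 1 and 1.0002 without IR64 control replicate 3, and was then called. PPOX1, protoporphyrinogen oxidase, lay between -0.33 and -0.07 of control in the 4 comparisons.

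The partners of CHL1 in magnesium chelatase, in their brightest probe sets, also stood lower at 42 °C than in the controls. CHLH, the large porphyrin-binding subunit, averaged 12656 ± 1626, 12185 ± 203 and 8168 ± 408 over the successive steps of Annapurna, and 10865 ± 602, 10454 ± 166 and 8001 ± 387 in IR64. Its difference between 42 °C and 37 °C was log2 -0.58 ± 0.072 in Annapurna (adjusted p = 1.9e-05) and -0.39 ± 0.072 in IR64 (adjusted p = 4.2e-04), not called in either. A dim further probe set of CHLH stood at -0.43 ± 0.13 and 0.03 ± 0.13 over that step. Between control and 42 °C that set went up in IR64, from 77.8 ± 5.71 to 101 ± 3.98. In Annapurna it went from 88.5 ± 23.3 to 72.3 ± 9.02. CHL9, which encodes the I subunit and is also named CHLI, was read by a dim probe set: 47.8 ± 7.43, 18.9 ± 1.40 and 17.6 ± 2.05 over the steps in Annapurna, and 70.6 ± 6.71, 38.0 ± 6.59 and 17.1 ± 2.85 in IR64. It fell in IR64 at 42 °C against control (log2 -1.39 ± 0.11, adjusted p = 9.3e-08), the 1 fall among the 10 genes, where 5.1% of all genes were called lower. So near background the size depends on the amount added before the log: with 64 added the value was -0.73 and not called, and with 1 added CHL9 was also called in Annapurna at 37 °C (-1.29) and 42 °C (-1.38, against -0.87 and -0.92 with 16).

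Within the arrays of Annapurna the changes of CHL1 and CHLH from 37 °C to 42 °C were nearly equal, differing by log2 -0.02 ± 0.049 (exact permutation test, two-sided, p = 0.7). From control to 37 °C they differed by -0.24 ± 0.072, CHL1 being already lower and CHLH at its control level (exact p = 0.1). Over both steps they differed by -0.26 ± 0.079 (exact p = 0.1). The change of CHL1 minus that of the dim CHL9 was 0.58 ± 0.14 from control to 37 °C (exact p = 0.1). It was -0.54 ± 0.065 from 37 °C to 42 °C (exact p = 0.1) and 0.03 ± 0.15 over both steps (exact p = 0.8). With 3 arrays against 3 this test cannot give a p below 0.1.

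PORB makes the closest comparison with PORA, since it encodes the same enzyme activity. The Annapurna controls read 6017, 5348 and 5362 for it, the 37 °C arrays 11432, 11606 and 11804, and the 42 °C arrays 9628, 9267 and 10083. In IR64 the controls read 6067, 5782 and 5694, the 37 °C arrays 10453, 11094 and 11465, and the 42 °C arrays 8762, 9008 and 9100. PORB was thus highest at 37 °C in both cultivars and stayed above control at 42 °C. It rose in Annapurna at 37 °C (log2 1.06 ± 0.049, adjusted p = 4.3e-10), the 1 rise among the 10 genes. In IR64 it stood at 0.91 ± 0.049 (adjusted p = 2.6e-09), under the 2-fold threshold, and at 42 °C against control at 0.79 ± 0.049 in Annapurna and 0.61 ± 0.049 in IR64.

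The POR genes had differences of opposite sign over the 42 °C step. From 37 °C to 42 °C in Annapurna PORA rose by 1.21 and PORB differed by -0.27 ± 0.049 (adjusted p = 6.5e-04, not called), so that the change of PORA exceeded that of PORB by log2 1.48 ± 0.048 on the same arrays (exact permutation p = 0.1, the smallest possible). From control to 37 °C the changes differed by 0.15 ± 0.090 (exact p = 0.2). The PORB probe set carries the ending that Affymetrix gives to sets with probes that may match related transcripts, while the CHL1 and PORA sets carry the plain ending; signal of PORA in the PORB set was not tested.

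**Figure D4:**
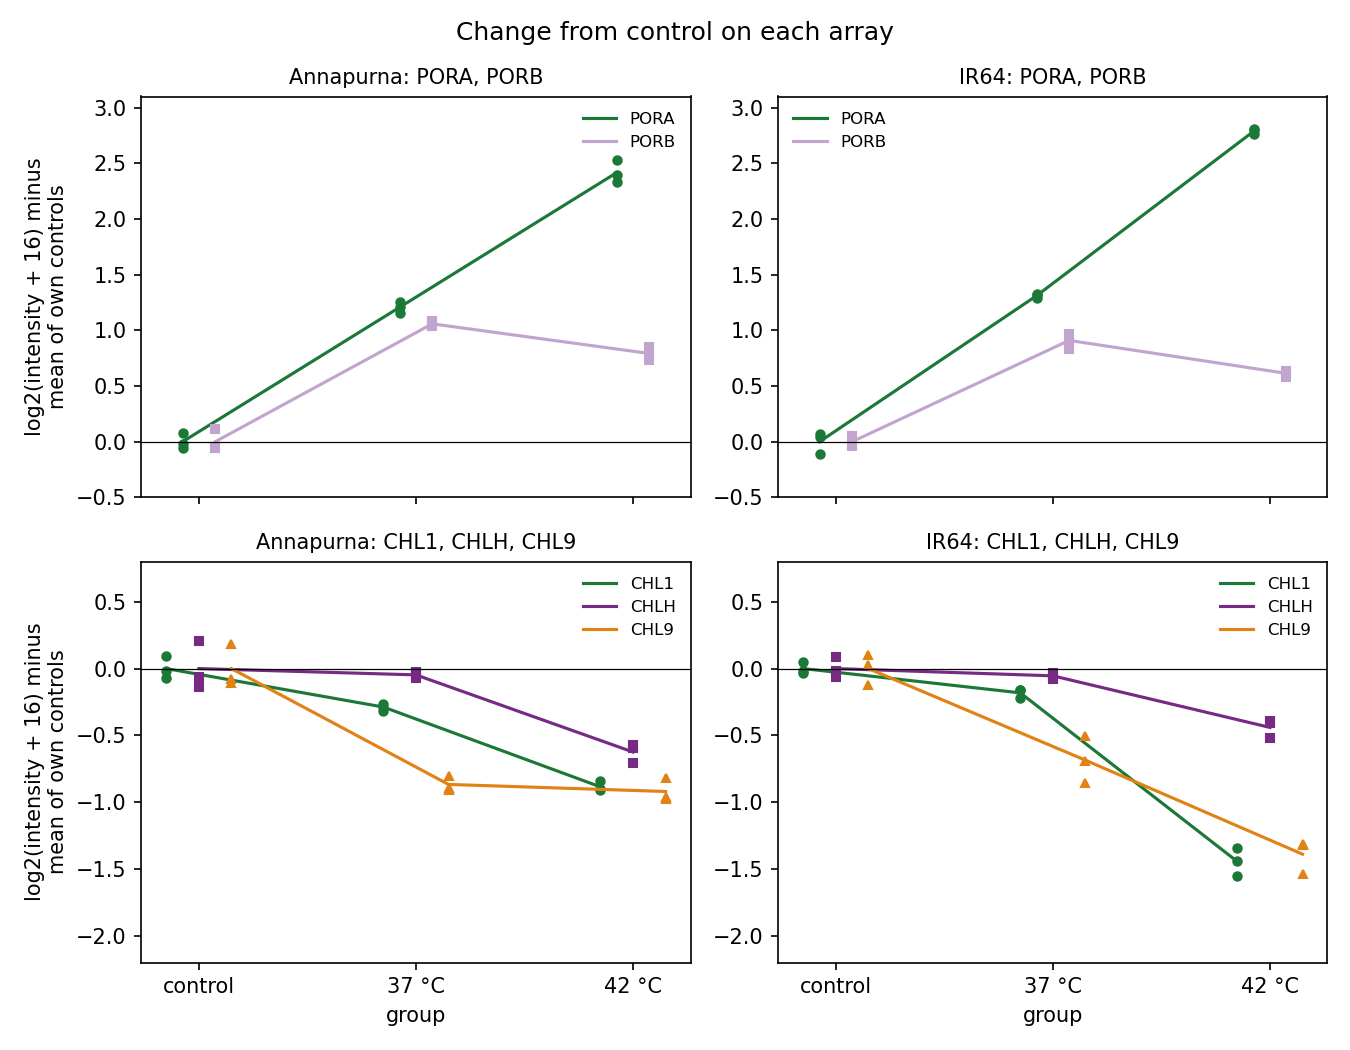
Change from the mean of the own controls on the log2(intensity + 16) scale, on each array, for PORA and PORB (top panels) and for the magnesium chelatase subunit genes CHL1, CHLH and CHL9 (bottom panels), with Annapurna on the left and IR64 on the right; points are arrays and lines join group means. PORA and PORB are both up at 37 °C, at 1.21 and 1.06 in Annapurna and 1.31 and 0.91 in IR64, and lie further apart at 42 °C, where PORA reaches 2.42 and PORB 0.79 in Annapurna, and the 3 subunit genes all lie below their controls at 42 °C.

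None of the genes of the last steps was called in a heat comparison, and CAO was the furthest below control among them. CHLG, chlorophyll synthase, stood at log2 -0.04 ± 0.039 in Annapurna and -0.33 ± 0.039 in IR64 at 42 °C, and CHLP, geranylgeranyl reductase, which makes the phytyl tail, at 0.12 ± 0.060 and 0.23 ± 0.060. CAO, chlorophyllide a oxygenase, which makes chlorophyll b, stood at -0.67 ± 0.072 in Annapurna and -0.24 ± 0.072 in IR64, and its step from 37 °C to 42 °C was -0.54 ± 0.072 and -0.55 ± 0.072. Between 37 °C and 42 °C in IR64 all 10 genes had values below 0, from -0.70 to -0.16 with a median of -0.34, and all 10 were lower at adjusted p under 0.05 alone, where 26.2% of all genes were lower by that rule and the median of all genes was 0.05. In Annapurna 7 of 10 were below 0 at that step, with a median of -0.09 against 0.01 for all genes, and 4 were lower and 1 higher at adjusted p under 0.05 alone, where 22.6% and 29% of all genes were.

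Other genes that act on chlorophyll were read for comparison with PORA and CHL1. In the breakdown list of 4 genes, 1 rose in Annapurna at 37 °C, where 5.56% of all genes rose (RCCR1, red chlorophyll catabolite reductase, log2 1.2 ± 0.074, adjusted p = 9.6e-09), and 1 fell there between 37 °C and 42 °C, where 6.39% of all genes fell (NYC1, chlorophyll b reductase, -1.24 ± 0.13, adjusted p = 3.9e-06). NYC1 at 37 °C against control in Annapurna stood at 0.99 ± 0.13 and was called when control replicate 1 of Annapurna was left out (1.17), or its 37 °C replicate 2 (1.02). In IR64 RCCR1 rose at 42 °C against control (1.33 ± 0.074, adjusted p = 3.0e-09), the 1 of 4 called, where 6.45% of all genes rose. NOL, the partner of NYC1, read 606 ± 30.0, 854 ± 4.23 and 1196 ± 13.8 over the steps in Annapurna and 906 ± 30.3, 1100 ± 10.7 and 935 ± 38.0 in IR64. Its 42 °C difference in Annapurna was 0.96 ± 0.036, called without Annapurna control replicate 2 (1.002) and, in a further probe set, at 1.39 ± 0.10. NOL thus shared the stepwise upward order of PORA in Annapurna and not in IR64.

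Heme, the other product of protoporphyrin IX, feeds the heme oxygenases. HO2, 1 of the 2 genes of this list, rose at 42 °C against control in both cultivars, by log2 1.15 ± 0.067 in Annapurna (adjusted p = 6.3e-09) and 1.11 ± 0.067 in IR64 (adjusted p = 7.3e-09). Among all genes 3.4% rose there in Annapurna and 6.45% in IR64. The other gene, HO1, stood at -0.46 ± 0.081 in Annapurna and 0.20 ± 0.081 in IR64. The light harvesting genes CAB2R and RCABP89, whose proteins bind chlorophyll, stood between -0.02 and 0.31 of control at both steps in both cultivars and were not called; a further probe set of CAB2R reached 0.38 ± 0.058 in IR64 at 42 °C. Of 5 regulators of greening 0 were called in a heat comparison, where between 6.45% and 11.5% of all genes were called either way. GLK1, a factor that switches on chlorophyll genes, stood at 0.72 ± 0.053 in Annapurna and 0.88 ± 0.053 in IR64 at 42 °C, and GLK2, its relative, at -0.59 ± 0.050 and -0.05 ± 0.050. GLK2 was higher in Annapurna controls than in IR64 controls, at 4804 ± 149 against 2171 ± 164 (1.14 ± 0.050, adjusted p = 4.0e-10), in 2 of its 4 probe sets, where 3.92% of all genes were called higher in Annapurna. PHYA, a phytochrome of far-red light sensing, stood at 0.82 ± 0.070 in Annapurna and 0.22 ± 0.070 in IR64 at 42 °C, and a further probe set at 0.90 ± 0.066 and 0.71 ± 0.066. HO2, NOL, GLK1 and GLK2 lie outside the rule for named genes and were added with their values known.

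The genes whose levels ran most like those of CHL1 and PORA were ranked by Pearson r of log2 levels over the 18 arrays, among 899 named genes with a mean of at least 50 and a range of group means of at least 1 log2. The arrays fall into 6 groups and share the treatments, so r describes likeness of the group pattern and is given without a p. Most like PORA were GLB1, a grain globulin gene (r = 0.993), DI19, a zinc finger gene of drought response (0.986), APRL2 (0.978), OsUAH, ureidoglycolate amidohydrolase (0.975), and OsSAP8, a stress-associated A20/AN1 zinc finger gene (0.973). GLB1 averaged 879, 1656 and 3122 over the successive steps of Annapurna, and 480, 1196 and 2810 over those of IR64. Its group means came in the same order as those of PORA over all 6 groups. Most unlike PORA were JAZ13, a repressor of jasmonate signalling (r = -0.982), CIPK3, a calcineurin B-like interacting kinase (-0.969), and CTU2 (-0.955).

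Most like CHL1 were EL2 (r = 0.976), OsWRKY71, a WRKY factor (0.966), LFNR1, a leaf ferredoxin-NADP reductase (0.951), OsbZIP63, a bZIP factor (0.944), and GWD3, a glucan water dikinase (0.942). LFNR1, the photosynthetic enzyme among them, read 7007, 5006 and 3368 over the steps in Annapurna and 5997, 4879 and 2099 in IR64. Most unlike CHL1 were LSI1, the root silicon transporter (r = -0.971), MUB4, a membrane-anchored ubiquitin-fold gene (-0.966), and OsTLP3 (-0.955). LSI1 averaged 1192, 1410 and 5659 over the successive steps of Annapurna, and 908, 1182 and 7660 over those of IR64. CHL1 and PORA themselves correlated at r = -0.896.

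Since a grain gene and a root gene stood at the top of these rankings, the markers of those tissues are given with PORA and CHL1. LSI1, the 1 root marker with a probe set, rose at 42 °C against control by log2 2.26 ± 0.17 in Annapurna (adjusted p = 8.5e-08) and 3.08 ± 0.17 in IR64 (adjusted p = 2.5e-09). In that comparison 3.4% of all genes rose in Annapurna and 6.45% in IR64. Of the grain markers AMY1.1, an alpha-amylase gene, read 5.47 to 5.49 on Annapurna 42 °C arrays, 5.41 to 5.54 on Annapurna 37 °C arrays and 5.62 to 5.65 on IR64 37 °C arrays, and 8767 to 10078 on IR64 42 °C arrays. Among controls it read 5.48, 5.49 and 124 in Annapurna, and 37.9, 41.6 and 3532 in IR64, the highest on replicate 3 of each. EP3A, a cysteine proteinase gene of germinating grain, read 5.90 to 6.28 on Annapurna 42 °C arrays and 41.5 to 52.3 on IR64 42 °C arrays. AMY1.3, a further alpha-amylase gene, read 652 to 697 on IR64 37 °C arrays and 86.2 to 97.2 on IR64 42 °C arrays. Over the step from 37 °C to 42 °C in Annapurna 1 of the 4 grain markers was called, AMY1.3, which fell: its arrays read between 85.7 and 103 at 37 °C and between 6.53 and 8.91 at 42 °C, where 6.39% of all genes fell. GLB1 differed in the same direction as PORA there, with means of 1656 and 3122 (log2 0.91 ± 0.078, adjusted p = 3.8e-07, not called), and AMY1.1 and EP3A read 5.41 to 6.28 at both steps. In IR64 all 4 were called over that step, 3 higher and AMY1.3 lower, where 6.45% of all genes were called either way. What part root or grain tissue has in the values of PORA and CHL1 was not tested.

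On the chromosome, the reference gene table sets CHL1 between LOC4334536 and LOC4334538 and PORA between LOC4337413 and LOC4337416. Its assembly is of a japonica rice and no build is named for the array, so no coordinates are given. None of these neighbours was called in a heat comparison. LOC4334536 stood at log2 0.80 ± 0.077 in Annapurna and 1.00 ± 0.077 in IR64 at 42 °C, where CHL1 was below control, and LOC4334538 at -0.15 ± 0.10 and 0.19 ± 0.10. Beside PORA, LOC4337413 stood at 0.22 ± 0.084 and 0.09 ± 0.084, and LOC4337416 at 0.66 ± 0.038 and 0.77 ± 0.038, both with steps from 37 °C to 42 °C under 0.42.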

How the data were processed

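The authors deposited 1 linear intensity per probe set and array; GCOS, the Affymetrix scanner software, is named in the submitters' processing notes, and further steps are not given in the sources used here. Array medians of log2(intensity + 16) lay within 0.037 of each other, and no further normalization was done. Between 34.2% and 35.3% of probe sets read over 50 on an array. The medians thus lie among dim probe sets, where the added 16 narrows their spread, and do not check the bright ones. The 123 control probe sets were left out, and 57258 were tested. In the gene annotation 22436 probe sets matched 1 gene, 95 several and 34727 none; a gene is read by its probe set with the highest mean. limma 3.58.1 in R 4.3.3 fitted log2(intensity + 16) over 6 group means and 18 arrays with a variance trend, tested on simulated data beforehand, and gave 12 contrasts. The named genes are CHL1, PORA, every other chlorophyll synthesis gene, up to 3 members of each other list called between 42 °C and 37 °C, its member with the highest mean, members called in a difference of responses, and the genes most and least like CHL1 and PORA. The members and lists were chosen with earlier results of these data known. Same-numbered arrays of different groups correlated in their deviations from group means at r = -0.24 to 0.21 (median 0.0017), so the numbers were not taken to pair them. Alternatives were other amounts added, quantile normalization, a filter on dim probe sets, no variance trend, fewer arrays, a replicate block, further probe sets, no fold threshold and each array left out.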

Additional observations from a re-analysis of the deposited data

Results flagged for a closer look

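The change from 37 °C to 42 °C differed between the cultivars for 2 chlorophyll breakdown genes in the interaction term of the limma fit, where 5.13% of all genes were called. For RCCR1 the difference, Annapurna minus IR64, was log2 -1.12 ± 0.11 (adjusted p = 3.7e-06): it went from 1089 to 766 in Annapurna and from 687 to 1067 in IR64. For SGR, a gene of magnesium removal from chlorophyll, it was -1.02 ± 0.13 (adjusted p = 8.9e-05), with 1235 and 701 in Annapurna and 709 and 821 in IR64. The SGR call was lost without Annapurna 37 °C replicate 3 (-0.996), IR64 37 °C replicate 3 (-0.99), Annapurna 42 °C replicate 3 (-0.90) or IR64 42 °C replicate 1 (-0.98), and a further SGR probe set stood at -0.47.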

How the results depend on the processing

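With the 2-fold threshold kept, all 200 alternative values of the tested CHL1 and PORA differences kept their direction and their side of the threshold. Without that threshold CHL1 in Annapurna, and both genes between the controls, would also be called. Of their 150 described IR64 values, 146 kept their direction and moved by less than the spread between replicates. The other 4 kept their direction but moved further. They came with quantile normalization, which gave CHL1 in IR64 -0.25 at 37 °C and -1.51 at 42 °C against control, and PORA 1.23 and 2.67. With each array left out in turn, PORA in Annapurna ran from 1.18 to 1.25 at 37 °C, 2.36 to 2.46 at 42 °C and 1.15 to 1.25 between the steps, and CHL1 from -0.92 to -0.84 at 42 °C. The replicate block gave PORA 1.21 between the steps and 2.42 at 42 °C in Annapurna (adjusted p = 3.8e-11) and changed no call of CHL1 or PORA. Of the counts of chlorophyll synthesis genes called, 151 of 162 stayed within 1.5 times. With 1 added before the log they were 2 in Annapurna at 37 °C, 1 at 42 °C, and 1 in IR64 between the steps; with 64 added, or with probe sets of a mean of at least 50 alone, 0 in IR64 at 42 °C, since CHL9 is dim. Without a fold threshold they were 5, 6 and 5 in Annapurna (37 °C, 42 °C, between the steps) and 7, 10 and 10 in IR64. The SGR difference of responses was -0.97 with 64 added and -0.90 after quantile normalization, and not called; the cause was not tested. NOL at 42 °C in Annapurna reached 1.001 after quantile normalization and was then called.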
